A study of Mus musculus with 8 samples.

Results

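A set of 9 genes of cornified envelope assembly that lie outside the epidermal differentiation complex was read from bulk RNA-seq of mouse dorsal skin. They were grouped by their role and matched by symbol and Ensembl identifier, with earlier results of these data already known, and they are 9 of the 55488 genes in each deposited table. All 9 passed the filter on low counts. The transglutaminases are Tgm1, Tgm3 and Tgm5, the proteases Casp14 and Asprv1, the scaffold genes Evpl and Ppl, the adhesion gene Cdsn and the cornifelin gene Cnfn. The study set 4 libraries from wild-type mice aged 3 months beside 4 libraries from mice with the genotype TPH1 knockout, described as derived from them. The labels give no strain, sex, allele, deleted exon or treatment, and nothing that both groups share beyond age and tissue. Whether each library is a separate mouse is not said, and the p-values therefore rest on the variation among libraries, which may be technical. Tph1 encodes the tryptophan hydroxylase of serotonin synthesis outside the brain, and the comparison asks how its loss affects the epidermis.

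The cornified envelope is a shell of protein and lipid that replaces the plasma membrane of a keratinocyte at the end of its differentiation. Envoplakin and periplakin, the products of Evpl and Ppl, form an early scaffold under the membrane, and calcium-dependent transglutaminases then join loricrin, involucrin and other proteins to it through isopeptide bonds. In parallel, profilaggrin is cut into filaggrin and later broken down to small molecules that hold water in the stratum corneum, and corneodesmosin, the product of Cdsn, holds the dead cells together until they are shed.

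Each library held 20531601 to 24678638 expected counts, which are RSEM's estimates of reads per gene. The values below are CPM, counts scaled to the library size after TMM scaling, and TPM is used where levels of different genes are compared, because it is scaled to gene length. The expected counts of the 9 genes ran from 28, for Tgm3 in Tph1 knockout replicate 1, to 18216 for Ppl in wild type replicate 1. Of these 72 values, 71 were whole numbers to within 1e-09. The exception was Tgm1 in wild type replicate 1, at 2730.84, in the library where the antisense gene Gm49067, which shares 182 exonic bases with Tgm1, held 2.16 counts. The library kit does not mark strand, so reads from that overlap cannot be told apart. Tph1 had 0 counts in each knockout library and at most 27 in a wild-type library, where a count of 0 allows up to 3 counts. The library labelled wild type replicate 2 also had 0 counts of Tph1, against its label, and every direction below is given with that library in its labelled group unless stated.

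A pair of libraries stood apart and are left out together where stated. One is the library labelled wild type replicate 2. The other is Tph1 knockout replicate 3, where 13 hair shaft genes summed to 524 CPM against 19.9 to 73.7 in the other libraries, and 10 inner root sheath genes to 2465 CPM against 194 to 559. The sebaceous gland list was also highest there, at 3112 CPM against 546 to 1684. Other libraries were extreme in other lists and were kept. Wild type replicate 1 had 3830 CPM of dermal fibroblast genes against 680 to 2051 in the rest. Wild type replicate 3 had 16389 CPM of skeletal muscle genes against 42303 to 119113. Skin identity was clear in all 8 libraries, with basal keratinocyte genes summing to at least 9888 CPM and suprabasal keratinocyte genes to at least 3691 CPM. The suprabasal sum was 8666 to 12278 CPM in wild type and 3691 to 6773 in knockout, with no overlap, while the basal sum overlapped (13797 to 25989 against 9888 to 18258). Of 6 suprabasal genes 1 passed the edgeR threshold, Krtdap (-1.37 ± 0.21 SE, edgeR adjusted p = 0.0324), where 0.651% of all tested genes passed. All 6 were lower at an edgeR unadjusted p under 0.05, against 9.37% of all tested genes, with a median log2 fold change of -1.05. In bulk tissue, fewer cells of a type and less RNA per cell cannot be told apart.

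**Figure D1:**
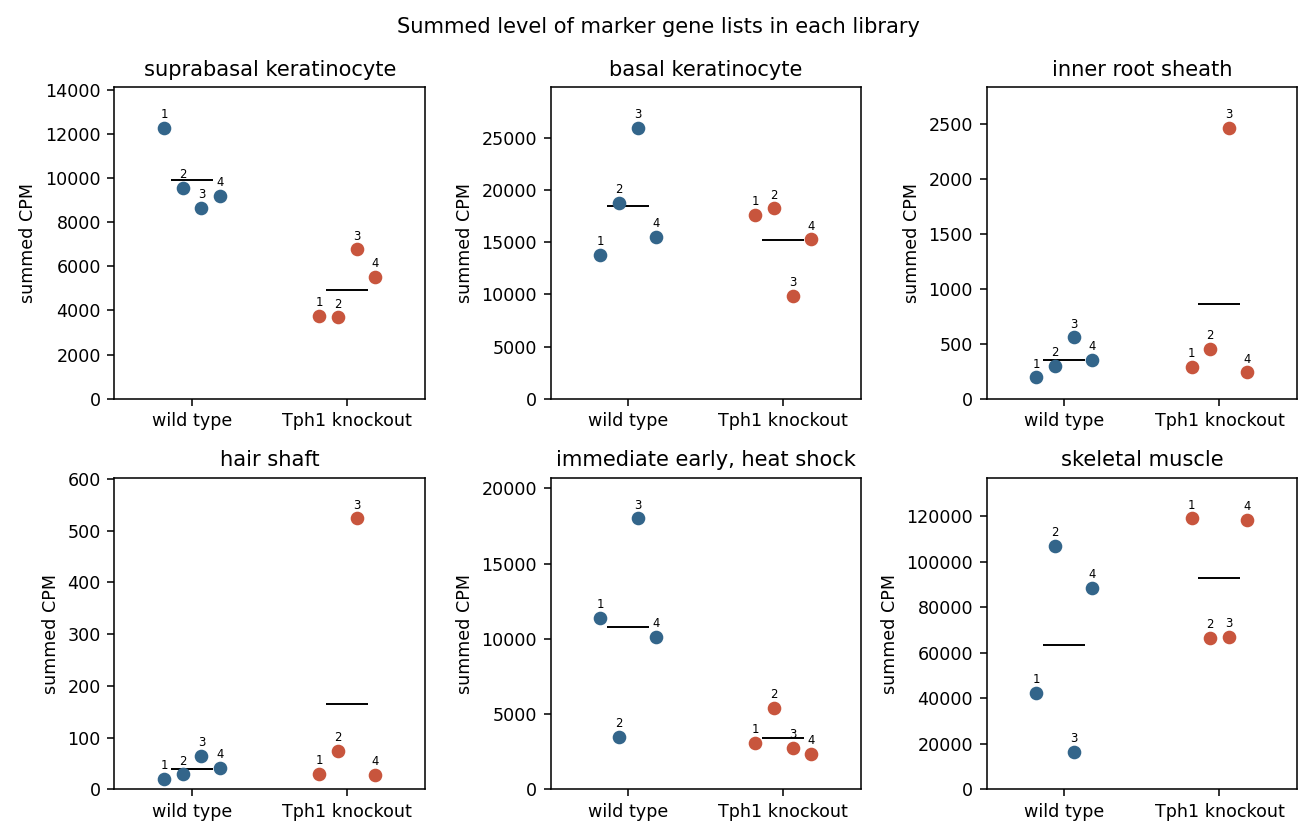
Summed CPM of 6 marker gene lists in each library, with wild type in blue, Tph1 knockout in red, replicate numbers beside the points and the mean as a bar. The suprabasal sum does not overlap between genotypes, and Tph1 knockout replicate 3 stands alone at 524 CPM for the hair shaft sum.

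None of the 9 genes passed the edgeR quasi-likelihood test at an adjusted p under 0.05, a threshold that 0.651% of the 16908 genes tested reached. At an unadjusted p under 0.05, 6 genes (Tgm1, Asprv1, Cnfn, Casp14, Evpl and Cdsn) were lower in knockout, against 9.37% of all genes in that direction, and 0 were higher, against 8.26%. The DESeq2 Wald test on the same counts called 5 of them lower, all but Cdsn, against 3.83% of all genes. In Evpl and Cnfn every knockout library lay below every wild-type library, as in 5.65% of all genes. Of the 9 log2 fold changes, 8 were negative, with a median of -0.82 where the median of all tested genes was 0.03, and 46.9% of all genes were negative. Without both libraries that stood apart, 3 of the 9 passed the edgeR test lower in knockout (Tgm1, Casp14 and Asprv1), against 0.878% of 16961 genes, and the median was -1.19. For these 3 genes the libraries left out were the lowest wild-type and the highest knockout library. Leaving them out therefore widens the difference by itself, and these calls are not independent support.

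**Figure D2:**
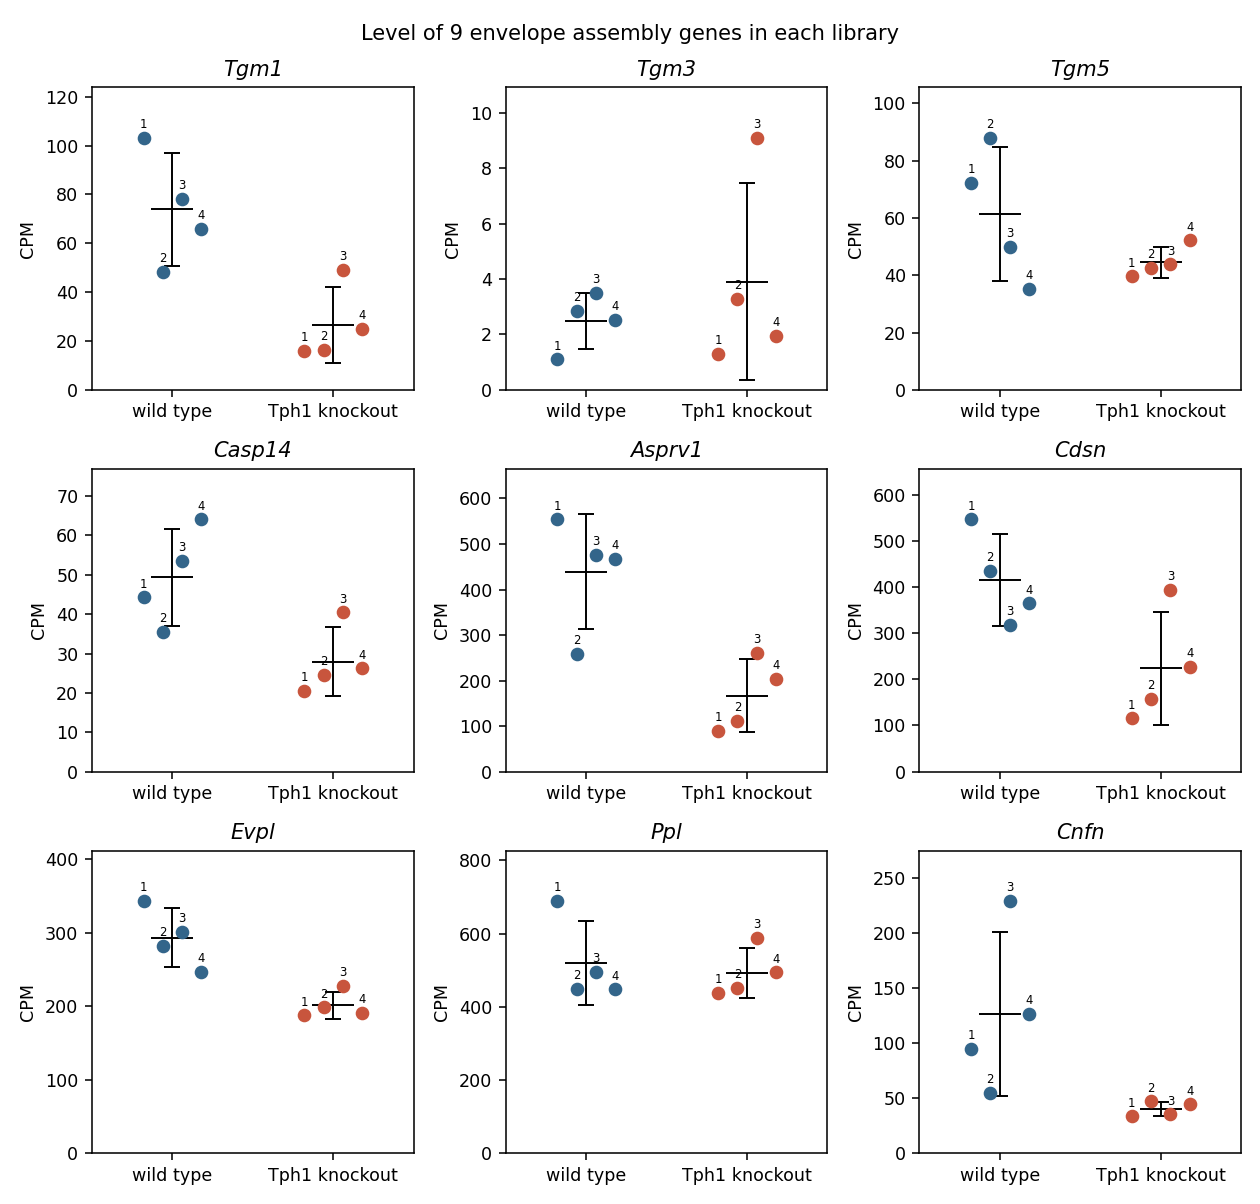
CPM of each of the 9 genes in every library, on linear axes from 0, with the mean and SD of 4 libraries per genotype and replicate numbers beside the points. Evpl and Cnfn show no overlap between genotypes, and Tph1 knockout replicate 3 is the highest knockout library for Tgm1, Tgm3, Casp14, Asprv1, Cdsn, Evpl and Ppl.

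**Figure D3:**
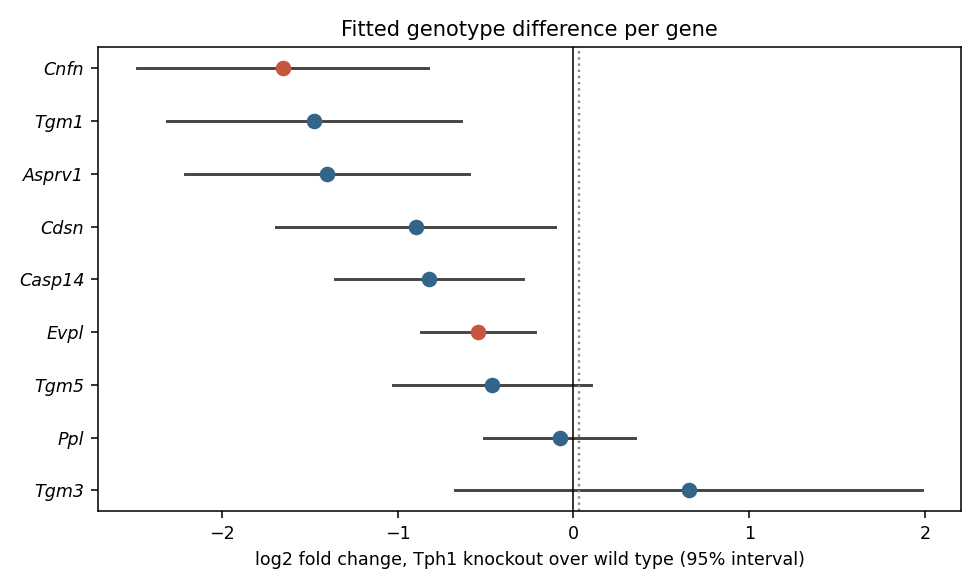
Fitted log2 fold change of knockout over wild type (points) with 95% intervals (lines) for the 9 genes, with red points where the genotypes do not overlap and a dotted line at the median of all tested genes, 0.03. The intervals of Tgm5, Ppl and Tgm3 span 0.

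Tgm1 (ENSMUSG00000022218) encodes the membrane-anchored transglutaminase of the granular layer that attaches the envelope to lipids and proteins, and its loss causes lamellar ichthyosis in people. The gene lies on the minus strand of chromosome 14 (55700009 to 55713926, GRCm38). Tgm1 stood at 103, 48.4, 78.3 and 65.8 CPM in the wild-type libraries (replicates 1 to 4) and at 16.1, 16.3, 49.2 and 25.0 in the knockout ones (replicates 1 to 4). In knockout, 3 libraries lay below all of wild type, and knockout replicate 3 was just above the library labelled wild type replicate 2. The means were 74.0 ± 23.1 and 26.6 ± 15.6 CPM (SD, n = 4 each). The fitted log2 difference was -1.47 ± 0.37 (SE, 95% interval -2.31 to -0.64, edgeR adjusted p = 0.112, DESeq2 adjusted p = 0.00442). It passed the edgeR test without knockout replicate 3, the knockout library with the most Tgm1, at -1.95 (adjusted p = 0.0256).

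Tgm3 (ENSMUSG00000027401) encodes a cytosolic transglutaminase that is activated by proteolysis and works in the hair follicle as well as in the epidermis. It lies on the plus strand of chromosome 2 (130012349 to 130050399). Its counts were low, with 1.10, 2.84, 3.51 and 2.52 CPM in wild type and 1.30, 3.29, 9.11 and 1.96 CPM in knockout. The genotypes overlapped, and the highest value by far belonged to knockout replicate 3, the library with the most hair shaft RNA. The log2 fold change was 0.65 ± 0.59 (SE, 95% interval -0.67 to 1.98, edgeR adjusted p = 0.584), and without knockout replicate 3 it was -0.19. The part of hair follicle RNA in the Tgm3 values was not tested beyond these numbers and the fit with the hair shaft level as a covariate, which gave -0.31 (adjusted p = 0.638).

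Tgm5 (ENSMUSG00000053675) encodes a transglutaminase of the upper epidermis whose loss causes acral peeling skin syndrome. It lies on the minus strand of chromosome 2 (121046111 to 121085841). It stood at 72.4, 88.1, 50.01 and 35.1 CPM in the wild-type libraries and at 39.7, 42.7, 43.8 and 52.2 in the knockout ones. Wild type spanned the whole knockout range, with wild type replicate 4 lowest of all 8. The log2 fold change was -0.46 ± 0.25 (SE, 95% interval -1.02 to 0.10, edgeR adjusted p = 0.360), and without the library labelled wild type replicate 2 it was -0.25 (adjusted p = 0.591). The coefficient of variation was 38.2% in wild type and 12.0% in knockout.

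The sequence before the start site is shown for Tgm1, Asprv1 and Cnfn, the genes with the largest fitted differences, and for Tgm3, whose fitted value had the other sign. Each run covers bases 250 to 11 before the RefSeq start (GRCm38.p6), written 5′ to 3′ on the gene's own strand, with letter matches in capitals. Both strands were searched. The Tgm1 run lies inside the span given for that gene above, which is from GENCODE and reaches farther upstream than the RefSeq start used here. The AP-1 letters TGANTCA occur in 6.58% of 32851 windows of 240 bases. The Grainyhead letters AACNGGTT occur in 1.74% of them. The TATA box letters TATAAA occur in 12.1%. The GC box letters CCGCCC, read GGGCGG on the other strand, occur in 31.3%. No match overlapped another.
Tgm1 (chr14:55713503-55713742, minus strand): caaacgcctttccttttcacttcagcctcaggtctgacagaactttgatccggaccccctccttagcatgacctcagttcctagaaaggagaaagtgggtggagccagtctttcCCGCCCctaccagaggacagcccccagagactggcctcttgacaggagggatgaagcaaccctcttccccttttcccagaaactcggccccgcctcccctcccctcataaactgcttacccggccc
Asprv1 (chr6:86627924-86628163, plus strand): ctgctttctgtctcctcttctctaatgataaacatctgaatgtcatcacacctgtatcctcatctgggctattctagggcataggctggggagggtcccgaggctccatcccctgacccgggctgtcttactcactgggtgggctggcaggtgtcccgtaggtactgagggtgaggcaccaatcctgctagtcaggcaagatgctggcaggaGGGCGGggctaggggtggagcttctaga
Cnfn (chr7:25369735-25369974, minus strand): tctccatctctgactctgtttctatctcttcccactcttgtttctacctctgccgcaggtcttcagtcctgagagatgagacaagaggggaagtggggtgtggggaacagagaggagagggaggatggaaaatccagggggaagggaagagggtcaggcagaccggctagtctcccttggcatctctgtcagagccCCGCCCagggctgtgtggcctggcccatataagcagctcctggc
Tgm3 (chr2:130012090-130012329, plus strand): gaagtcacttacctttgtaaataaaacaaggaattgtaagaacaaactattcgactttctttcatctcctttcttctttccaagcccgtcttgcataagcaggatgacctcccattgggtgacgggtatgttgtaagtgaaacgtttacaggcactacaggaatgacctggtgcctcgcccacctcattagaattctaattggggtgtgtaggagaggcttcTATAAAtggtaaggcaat
A GC box starts 136 bases before the start in Tgm1, 38 in Asprv1 (on the other strand) and 54 in Cnfn, and Tgm3 has a TATA box 28 bases before its start. The windows of Tgm5, Casp14 and Cdsn and the other start of Tgm1 held none of the 4 letter runs. Of the 9 genes, 7 were in the RefSeq table. Letter matches are descriptions and do not show binding.

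Casp14 (ENSMUSG00000005355) encodes caspase-14, a protease of cornifying keratinocytes that takes part in filaggrin breakdown. The gene lies on the minus strand of chromosome 10 (78711991 to 78718294). It stood at 44.3, 35.5, 53.6 and 64.1 CPM in the wild-type libraries and at 20.5, 24.6, 40.5 and 26.3 in the knockout ones. Only knockout replicate 3 reached into the wild-type range, above the library labelled wild type replicate 2. The means were 49.4 ± 12.3 and 27.9 ± 8.69 CPM (SD, n = 4 each). The fitted log2 difference was -0.82 ± 0.24 (SE, 95% interval -1.35 to -0.29, edgeR adjusted p = 0.145, DESeq2 adjusted p = 0.0333).

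Asprv1 (ENSMUSG00000033508) encodes the retroviral-like aspartic protease SASPase, which cuts the linkers between filaggrin repeats in the granular layer. It lies on the plus strand of chromosome 6 (86628164 to 86629710). It stood at 554, 258, 477 and 467 CPM in the wild-type libraries and at 89.3, 112, 261 and 204 in the knockout ones. The overlap was again between the library labelled wild type replicate 2 and knockout replicate 3, which differed by less than the spread in either group. The means were 439 ± 127 and 167 ± 80.3 CPM (SD, n = 4 each). The fitted log2 difference was -1.40 ± 0.36 (SE, 95% interval -2.21 to -0.59, edgeR adjusted p = 0.115, DESeq2 adjusted p = 0.00408). Without both of those libraries it was -1.90 (edgeR adjusted p = 0.0355), and Casp14 was at -1.19 (adjusted p = 0.0251).

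Cdsn (ENSMUSG00000039518) encodes corneodesmosin, an adhesive glycoprotein that is added to desmosomes as they become corneodesmosomes. It lies on the plus strand of chromosome 17 (35552128 to 35557180). It stood at 547, 436, 318 and 365 CPM in the wild-type libraries and at 115, 158, 395 and 227 in the knockout ones. Knockout replicate 3 lay above wild type replicates 3 and 4, and the other knockout libraries lay below all of wild type. The log2 fold change was -0.90 ± 0.35 (SE, 95% interval -1.69 to -0.10, edgeR adjusted p = 0.235, DESeq2 adjusted p = 0.104). Without knockout replicate 3 it was -1.32 (edgeR adjusted p = 0.0666).

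Evpl (ENSMUSG00000034282) and Ppl (ENSMUSG00000039457) encode plakin proteins that pair with each other. Evpl lies on the minus strand of chromosome 11 (116220559 to 116238077) and Ppl on the minus strand of chromosome 16 (5086291 to 5132421). Evpl stood at 343, 283, 301 and 247 CPM in the wild-type libraries and at 188, 199, 228 and 191 in the knockout ones, with no overlap on this scale. In TPM the genotypes overlapped, with knockout replicate 3 at 55.98 above wild type replicate 4 at 44.78, and the exact permutation p was 0.0571. Its log2 fold change was -0.54 ± 0.15 (SE, 95% interval -0.87 to -0.22, edgeR adjusted p = 0.123, DESeq2 adjusted p = 0.00823). In CPM, Evpl also had the lowest coefficient of variation of the 9 genes in each genotype, 13.7% in wild type and 9.04% in knockout. In TPM it did not, at 23.4% in wild type (Casp14 19.4%) and 25.4% in knockout (Tgm5 18.6%).

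Ppl stood at 689, 449, 497 and 448 CPM in the wild-type libraries and at 437, 452, 588 and 494 in the knockout ones. The genotypes overlapped. The log2 fold change was -0.08 ± 0.19 (SE, 95% interval -0.51 to 0.35, edgeR adjusted p = 0.859), and its interval overlapped that of Evpl. Whether the pair differed in their response was tested by their ratio.

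Within each library the ratio of Evpl to Ppl in TPM was 0.480, 0.606, 0.584 and 0.532 in wild type and 0.414, 0.425, 0.373 and 0.374 in knockout. Every knockout ratio lay below every wild-type ratio, including those of the library labelled wild type replicate 2 and knockout replicate 3. The log2 ratio differed by -0.47 (-0.87 ± 0.15 against -1.34 ± 0.10, SD, n = 4 each), with an exact two-sided permutation p = 0.0286, the smallest that 70 assignments can give. In all 7 ratios were compared, and the p adjusted over them was 0.1.

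Cnfn (ENSMUSG00000063651) encodes cornifelin, a small cysteine-rich protein of the cornified envelope. It lies on the minus strand of chromosome 7 (25367620 to 25369724), 21.27 Mb from Tph1 on the same chromosome. It stood at 94.6, 54.8, 229 and 126 CPM in the wild-type libraries and at 33.5, 47.1, 35.3 and 44.3 in the knockout ones. All 4 knockout libraries lay below wild type, and the wild-type values were widely spread, with a coefficient of variation of 59.0% against 16.7% in knockout. The log2 fold change was -1.65 ± 0.37 (SE, 95% interval -2.48 to -0.83, edgeR adjusted p = 0.0841, DESeq2 adjusted p = 0.000658). Knockout replicate 3, which was high for most of the other genes, was the second lowest of the 8 libraries for Cnfn. Cnfn passed the edgeR test without the library labelled wild type replicate 2, the wild-type library with the least Cnfn, at -1.92 (adjusted p = 0.0352).

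The exact permutation test of each gene's log2(CPM + 1) gave p = 0.0286 for Evpl and Cnfn, the smallest possible, p = 0.0571 for Tgm1, Casp14 and Asprv1, and p = 0.0857 for Cdsn, with no adjustment over the 9 tests. These values changed when single libraries were left out, but then the assignments are fewer and the groups unequal. Such p are on a coarser scale and cannot be set directly beside the values above. For Evpl the exact permutation p was 0.0571 without knockout replicate 1, 2 or 4, and for Cnfn it was 0.0571 without any 1 of the knockout libraries. In CPM both genes had no overlap between genotypes with every library kept, and leaving a library out cannot create one. For Tgm1, Asprv1 and Cdsn the exact permutation p was 0.0286 without knockout replicate 3. That was the only knockout library to reach into the wild-type range for these genes. Leaving it out removes the overlap by itself, and these p are not independent support.

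**Figure D4:**
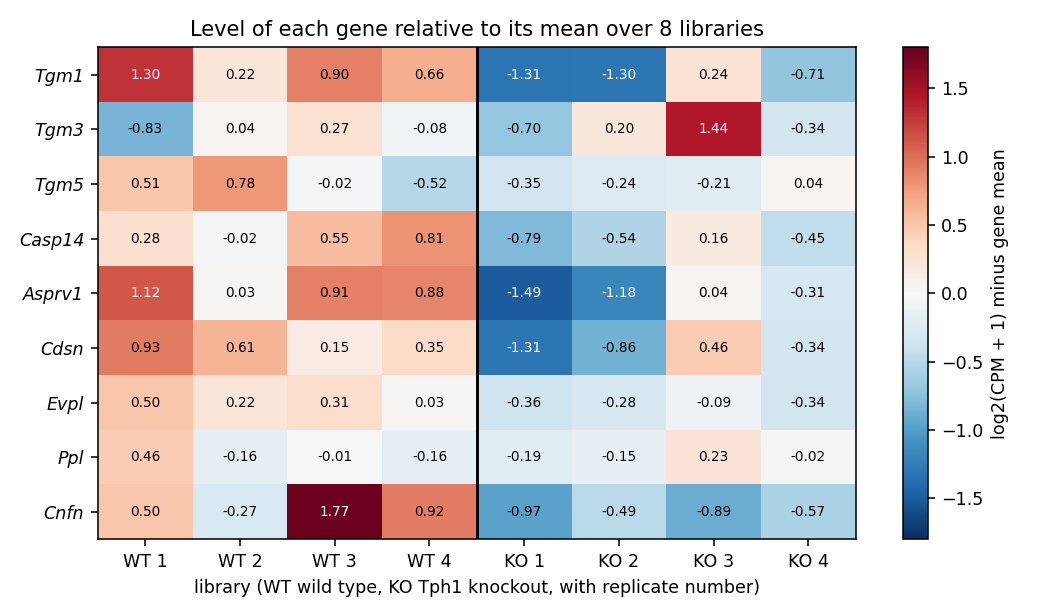
Level of each gene in each library as log2(CPM + 1) minus the gene's mean over the 8 libraries, from blue (low) to red (high), with a line between genotypes. Knockout replicates 1 and 2 are lowest for Tgm1 (-1.31 and -1.30) and Asprv1 (-1.49 and -1.18), while knockout replicate 3 is highest for Tgm3 (1.44) and low for Cnfn (-0.89).

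Profiles over the 8 libraries were compared by the root-mean-square difference of these centred values, as a description. Tgm1 and Asprv1 were the nearest pair, at 0.21 log2 units, and Evpl and Ppl followed at 0.26. Tgm3 was the farthest gene from Tgm1, Casp14, Asprv1, Cdsn, Evpl and Cnfn, at 0.74 to 1.18. Of 10129 other genes with a mean of at least 10 CPM, those nearest to the mean profile of the 9 included Ptgs1, which encodes cyclooxygenase-1 (0.12), Dhcr7, which encodes the last enzyme of cholesterol synthesis (0.13), Smagp (0.13) and Faah, which encodes fatty acid amide hydrolase (0.14).

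On the TPM scale, the order of mean levels in wild type was Asprv1 (409), Cnfn (331), Cdsn (216), Ppl (114), Evpl (61.6), Tgm1 (37.4), Tgm5 (33.5), Casp14 (30.2) and Tgm3 (0.798). Between neighbours, ranges over 4 libraries were separate only for Ppl above Evpl and for Casp14 above Tgm3. In knockout the order was Asprv1 (157), Cdsn (118), Ppl (105), Cnfn (103), Evpl (41.1), Tgm5 (24.2), Casp14 (17.2), Tgm1 (13.7) and Tgm3 (1.37). There, neighbours were separate for Cnfn above Evpl, Evpl above Tgm5 and Tgm1 above Tgm3. Tgm1 thus held place 6 in wild type and place 8 in knockout, among neighbours whose ranges overlapped.

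Of the summed TPM of the 3 transglutaminases, Tgm1 made up 56.8%, 33.7%, 57.8% and 62.3% in wild type and 26.2%, 23.8%, 47.8% and 29.6% in knockout. Tgm5 made up most of the rest, and Tgm3 at most 5.77%, in knockout replicate 3. The Tgm1 to Tgm5 ratio was 1.33, 0.520, 1.43 and 1.72 in wild type and 0.366, 0.328, 1.03 and 0.433 in knockout. Tgm1 exceeded Tgm5 in 3 wild-type libraries and, in knockout, in replicate 3. The log2 ratio differed by -1.24 (exact permutation p = 0.0571, adjusted over 7 ratios p = 0.133).

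The Tgm1 to Tgm3 ratio was 23.7 to 116 in wild type and 6.96 to 16.9 in knockout, without overlap. The log2 ratio differed by -1.94 (exact permutation p = 0.0286, adjusted p = 0.1), and without wild type replicate 1, the highest, by -1.45 (exact permutation p = 0.0571). The Tgm3 to Tgm5 ratio overlapped (0.69, exact permutation p = 0.343, adjusted p = 0.343), and its difference was 0.28 without wild type replicate 1 and 0.19 without knockout replicate 3.

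The filaggrin-processing proteases were also compared with each other and with filaggrin, Flg. The log2 ratio of Casp14 to Asprv1 was 0.64 higher in knockout (exact permutation p = 0.0857, adjusted p = 0.150), with Casp14 at 0.0532 to 0.0920 of the Asprv1 TPM in wild type and 0.0866 to 0.155 in knockout. Casp14 to Flg differed by 0.25 (exact permutation p = 0.257, adjusted p = 0.300), or 0.12 without wild type replicate 1, and Asprv1 to Flg by -0.39 (exact permutation p = 0.143, adjusted p = 0.200), or -0.26 without knockout replicate 2. All 3 pairs overlapped between genotypes.

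**Figure D5:**
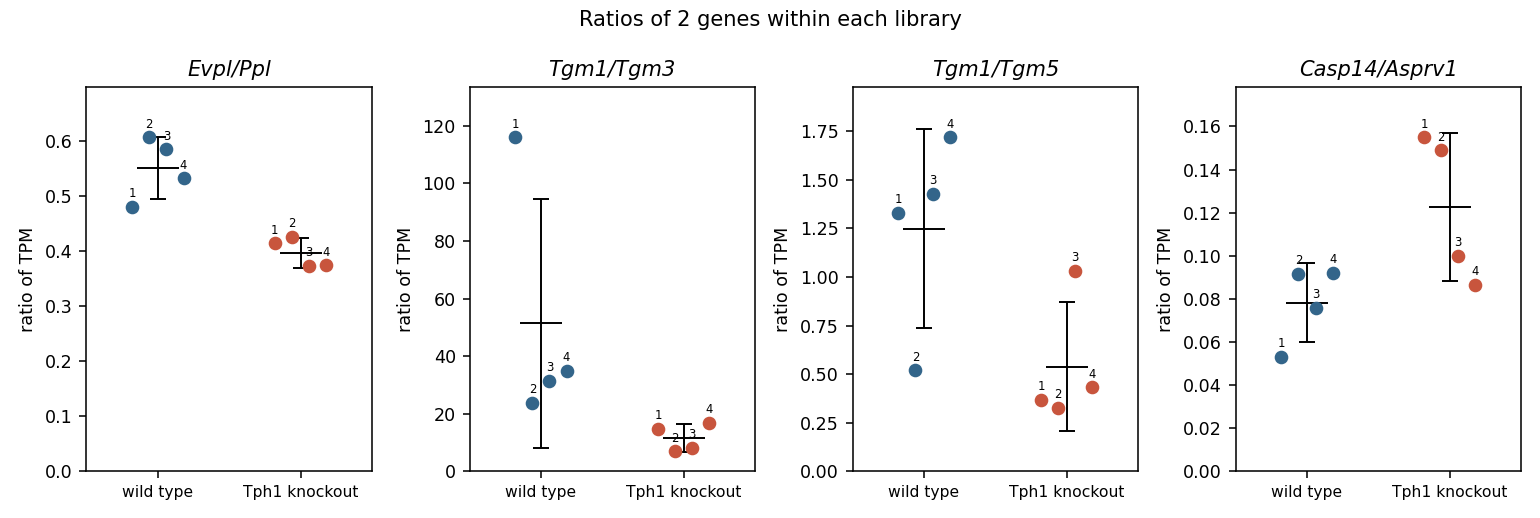
Ratio of the TPM of 2 genes in each library, on linear axes from 0, with the arithmetic mean and SD of 4 libraries per genotype and replicate numbers beside the points. Evpl to Ppl and Tgm1 to Tgm3 do not overlap between genotypes, while Tgm1 to Tgm5 and Casp14 to Asprv1 do.

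The rest of the pathway was read from gene lists set by known function. Among the substrates that transglutaminases join into the envelope, 31 of 47 in the files were tested. By edgeR 2 fell, 0 rose and 29 did not pass, where 0.651% of all tested genes passed. The median log2 fold change of the list was -1.02. The 2 that fell were Lor, which encodes loricrin, the main envelope protein (-1.47 ± 0.24 SE, adjusted p = 0.0379), and Crct1 (-1.40 ± 0.22, adjusted p = 0.0324). Lce1m, a late cornified envelope gene, was next, at -1.30 ± 0.25 (adjusted p = 0.0576). Unadjusted p was under 0.05 for 13 lower and 2 higher genes of this list, where 9.37% of all tested genes were lower and 8.26% higher by that rule.

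Of 14 tested genes of filaggrin processing and breakdown other than Casp14 and Asprv1, 0 passed (edgeR), with 6 lower and 2 higher at an unadjusted p under 0.05 (9.37% and 8.26% of all tested genes) and a median of -0.13. Padi2, which encodes a peptidylarginine deiminase, averaged 31.2 ± 23.2 CPM in wild type against 131 ± 22.1 in knockout, with separate ranges (SD, n = 4 each; 2.07 ± 0.49 SE, adjusted p = 0.0977). The kallikrein gene Klk7 was at -1.34 ± 0.34 (adjusted p = 0.110). Blmh, which encodes the bleomycin hydrolase that ends filaggrin breakdown, was at -0.52 ± 0.14 (adjusted p = 0.129). Klk7 and Blmh were also without overlap, below wild type, as were 5.65% of all tested genes. For Padi2, the matching share above wild type is not given here. Of 6 desquamation genes tested, which share Klk5 and Klk7 with the list before, 1 fell (0.651% of all tested genes passed) and 5 did not pass, with a median of -0.96. It was Klk8, a kallikrein of the upper epidermis (-1.25 ± 0.20, adjusted p = 0.0324).

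Of the other transglutaminase family genes, 5 were tested and 0 passed (edgeR, 0 at an unadjusted p under 0.05), with a median of 0.27. Tgm6, Tgm4 and Tgm7 had log2 fold changes of 2.35 ± 1.63, 0.60 ± 0.44 and -0.34 ± 0.31 (SE), all with genotypes overlapping. The proteases and inhibitors that act on transglutaminases gave 0 of 6, with a median of -0.03. At an unadjusted p under 0.05, 1 was lower and 1 higher, where 9.37% and 8.26% of all tested genes were. In that list Ctsl, which encodes the lysosomal protease cathepsin L, was at -0.46 ± 0.16 (adjusted p = 0.196) and Lgmn, which encodes legumain, at -0.39 ± 0.18 (adjusted p = 0.286). Serpinb6c was at 1.48 ± 0.51 (adjusted p = 0.198), with low means of 0.346 CPM in wild type and 0.971 in knockout. The more abundant Serpinb6a (356 and 365 CPM) was at 0.04.

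By the unadjusted rule used below, 9.37% of all tested genes were lower. The other plakins gave 0 of 5 and a median of 0.05, with 1 lower at an unadjusted p under 0.05. Among them Eppk1, which encodes epiplakin, was at -0.76 ± 0.30, Dst at 0.37 ± 0.22 and Plec, which encodes plectin, at 0.28 ± 0.19 (SE, edgeR adjusted p = 0.231, 0.392 and 0.467). The desmosome genes that Cdsn joins gave 0 of 10 and a median of -0.29, with 4 lower at an unadjusted p under 0.05. Their summed CPM did not overlap, at 4415 to 5991 in wild type and 3549 to 4272 in knockout. The plakophilin gene Pkp3 and the plakoglobin gene Jup were at -0.51 ± 0.15 and -0.56 ± 0.17 (adjusted p = 0.145 and 0.160). Dsg1c was at -1.16 ± 0.42 (adjusted p = 0.210), with low means of 2.02 CPM in wild type and 0.905 in knockout. The more abundant Dsg1a (357 and 310 CPM) was at -0.21 and Dsg1b at 0.15.

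All 10 genes of lipid attachment to the envelope had negative log2 fold changes, against 46.9% of all tested genes. Their median was -0.80 and 0 passed (edgeR), with 7 lower at an unadjusted p under 0.05, against 9.37% of all tested genes. The lipoxygenase gene Alox12b was at -1.49 ± 0.28 (adjusted p = 0.0538), the elongase gene Elovl1 at -1.09 ± 0.21 (adjusted p = 0.0547) and the ceramide synthase gene Cers3 at -1.13 ± 0.33 (adjusted p = 0.145).

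Marker lists of other cells and of tissue handling were set beside the 9 genes. Of 20 immediate early and heat shock genes, 19 were negative and 1 fell (Nr4a1, -2.18 ± 0.33 SE, edgeR adjusted p = 0.0324). Of all tested genes, 46.9% were negative and 0.651% passed. At an unadjusted p under 0.05, 17 were lower, against 9.37% of all tested genes, and 0 were at 0. The list summed to 3500 to 17997 CPM in wild type and 2370 to 5411 in knockout. Its lowest wild-type library was replicate 2, which was also lowest in wild type for Tgm1, Asprv1, Casp14 and Cnfn. Its highest knockout library was replicate 2. That library was highest in knockout for Cnfn, but below knockout replicates 3 and 4 for Tgm1, Asprv1 and Casp14. The mean log2 level of the list was 7.89 in wild type and 6.47 in knockout, so it follows genotype. A fit with both cannot tell them apart, and the genes passing among all tested dropped from 110 to 6. With the level of this list as a covariate the median of the 9 genes was -0.59 and 0 passed. None of the 6 genes that were lower at an unadjusted p under 0.05 without the covariate stayed under it, and Tgm1, Asprv1, Cdsn and Cnfn were then at -0.97, -0.93, -1.10 and -0.40. The 1 gene under it was Tgm5, at -0.85 (edgeR unadjusted p = 0.0452, adjusted p = 0.623), and all adjusted p were at least 0.623.

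Of 14 skeletal muscle genes, 0 passed and all were positive (median 0.47), with sums of 16389 to 107008 CPM in wild type and 66522 to 119113 in knockout. With their level as a covariate the median of the 9 genes was -0.72. Of 9 basal keratinocyte genes 0 passed and 7 were negative (median -0.30), and with their level as a covariate the median was -1.03. With the hair shaft level as a covariate it was -1.06. None of the 9 genes passed under any of the 4 covariates, and the part of these cells or of handling in the values of the 9 genes was not tested further.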

How the data were processed

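Total RNA of dorsal skin was taken with a column kit and made into libraries with the NEBNext Ultra RNA kit, per the labels' protocols. Tools listed in the submitters' processing notes are RSEM 1.31 and STAR 2.7.6a, with DESeq2, DESeq and the build GRCm38. Strand was not stated as used in counting; the antisense gene Gm49067, which shares 182 exonic bases with Tgm1, held at most 2.16 counts. The deposited expected counts are RSEM estimates, not normalized, and were rounded. The deposited TPM values are scaled to gene length and library size by RSEM, per the file headers; the deposited FPKM values and the gene lengths, per the file headers, entered no main test. The authors' normalized signal matrix of 17382 genes served as an alternative for ratios; its gene filter is not given here.

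Counts were tested with edgeR 4.0.16 in R 4.3.3: filterByExpr (minimum count 10, total 15), TMM, quasi-likelihood F test (robust) on genotype alone, Benjamini-Hochberg adjustment over 16908 genes and a threshold of 0.05. The SE was taken as |log2 fold change| / sqrt(F). DESeq2 1.42.0 and limma 3.58.1 (on log2(TPM + 1)) were alternatives. Ratios used TPM with a pseudocount of 0.1. The edgeR script was tested on simulated data. Single values and ratios were compared by exact two-sided permutation over 70 assignments. Where 1 library was left out, the assignments were fewer and the groups unequal, so those p are not on the same scale. Symbols came from the matrix for 17354 identifiers and a name table for 37798. Coordinates are from GENCODE M21 on GRCm38, and promoter sequences from RefSeq on GRCm38.p6. The genes named are the 9, the 3 smallest p and any passing gene of each list, and the 5 nearest by profile, of which 1 is not reported here; of the marker lists only the passing genes are named. The members, lists and promoter windows were chosen with earlier results of these data known.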

Additional observations from a re-analysis of the deposited data

Results flagged for a closer look

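The level of each of the 9 genes and the 7 ratios were searched for a library far from the other 3 of its genotype, which gave 32 groups of 4 libraries, and chance alone picks about 1 in 20 such groups. Of these, 3 were picked, all of them ratios. The picked ratios were measured on the linear scale, while the ratio tests above used log2 ratios. A library that stands far off on the linear scale may not do so in log2. The Tgm1 to Tgm3 ratio of wild type replicate 1 was 116, where the remaining wild-type ratios were 23.7 to 34.9, and that library had the highest Tgm1 and the lowest Tgm3 of the 4. The Tgm1 to Tgm5 ratio of Tph1 knockout replicate 3 was 1.03, against 0.328 to 0.433. The Casp14 to Flg ratio of Tph1 knockout replicate 1 was 0.747, against 0.587 to 0.600 in the other knockout libraries.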

How the results depend on the processing

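No paired analysis was possible because the library numbers in the labels do not repeat between genotypes. The number of genes passing, 110, was 994 by DESeq2, 28 by limma on TPM, 27 with library size only, 26, 42 and 6 with the muscle, hair shaft and immediate early covariates, 167 without both libraries that stood apart and 8 to 170 without 1 library. The number among the 9 genes was 0, but 5 by DESeq2, 3 without both libraries and 0 to 1 without 1 library (Cnfn without the library labelled wild type replicate 2, Tgm1 without knockout replicate 3). Their median, -0.82, was -1.19 without both libraries and -1.05 to -0.68 without 1. Tgm1, Tgm5, Casp14, Asprv1, Cdsn, Evpl and Cnfn were negative in all 20 alternative fits, with Tgm5 from -0.85 (immediate early covariate) to -0.25. Tgm3 turned negative with the hair shaft covariate (-0.31), without both libraries (-0.14) and without knockout replicate 3 (-0.19 to 0.94 over the 8 libraries), and its permuted level was -0.13 to 0.58. Ppl turned positive with the immediate early (0.17) and muscle (0.012) covariates and without wild type replicate 1 (-0.17 to 0.085), and its permuted level was -0.15 to 0.077. The log2 ratio of Evpl to Ppl was -0.53 to -0.42 without 1 library (exact permutation p 0.0286 to 0.0571), Tgm1 to Tgm3 -2.21 to -1.45 (0.0286 to 0.0571) and Casp14 to Asprv1 0.46 to 0.79 (0.0286 to 0.200). Ratios from the authors' normalized values and with a pseudocount of 1 kept their direction and side of the threshold. Causes were not tested. Between the 3 other scalings (RLE, upper quartile, library size only), the share of lower among passing genes was 79.4%, 73.3% and 74.1%, against 81.8%. It was 50% of 6 genes with the immediate early covariate, and 42.1%, 37.5% and 57.1% without knockout replicate 1, 2 and 4.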

Other observations

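The RSEM gene length, a mean over a gene's transcripts weighted by their estimated abundance, was compared for the 5 genes among the 9 that have more than 1 transcript, a comparison added after the data were seen. For Tgm5 it was 2563, 2600, 2529 and 2547 bases in wild type and 2500, 2376, 2538 and 2483 bases in knockout, with 1 knockout library inside the wild-type range (difference of -85.4 bases, exact two-sided permutation p = 0.0571, adjusted over 5 genes p = 0.286). For Tgm1, Casp14, Ppl and Cnfn the genotypes overlapped, with exact permutation p from 0.400 to 0.914.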
